A study of Mus musculus with 12 samples.

Results

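The chromatin around Cyp26b1 and Aldh1a2, the genes of a retinoic acid degrading and a retinoic acid synthesising enzyme, was described in mouse forelimb buds from peak lists of chromatin immunoprecipitation and sequencing (ChIP-seq). Members were all peaks that overlap a fixed mm9 window around each gene, chr6:84300000-84900000 for Cyp26b1 (600 kb) and chr9:70850000-71250000 for Aldh1a2 (400 kb). The windows held 131 of the 189536 peaks of the series, 71 in the Cyp26b1 window and 60 in the Aldh1a2 window, and none crossed a window edge. The windows were set by position and not by a peak value, but they were chosen with earlier results of these data known.

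Embryos of the double mutant, Hoxa13-/-;Hoxd13-/-, and wild-type embryos were both of mixed C57BL/6 and CD1 background and were taken at E11.5, and each genotype gave 1 library for H3K27ac and 1 for H3K27me3 from the distal part of the forelimb. Wild-type E11.5 tissue also gave 1 library for HOXA13 and 1 for HOXD13. A further H3K27me3 library came from E10.5 forelimb buds of CD1 mice, for which the labels name no distal dissection and another antibody supplier. Both mutant alleles were insertions, a neomycin cassette within the Hoxa13 coding sequence and lacZ within exon 1 of Hoxd13, and were carried by the whole embryo and not by the limb alone. The protocol text names ZAP cells (cells of the zone of polarizing activity at the posterior limb margin), whereas the series text names the distal limb. The labels do not say whether embryos were pooled. With 1 library per group no difference between genotypes or stages has a replicate check, and none was tested. Peak lists hold no expression values, so the identity of the tissue was not checked on marker genes.

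Retinoic acid is a diffusible signal that enters the limb bud from the body wall and is associated with proximal identity. Aldh1a2 encodes the retinaldehyde dehydrogenase that makes it in the embryonic trunk and flank, and Cyp26b1 encodes the cytochrome P450 that oxidises it in the distal limb mesenchyme, which keeps the region of the future digits low in retinoic acid. That distal region expresses HOXA13 and HOXD13, DNA-binding proteins of the homeodomain class. H3K27ac marks active promoters and enhancers, H3K27me3 marks chromatin held by Polycomb repressive complexes, and their joint presence at a gene start in a mixed tissue can come from the same or from different cells.

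The start regions of both genes are shown because the windows were named for them. They come from RefSeq on GRCm38.p6, in which Cyp26b1 lies between the protein-coding genes Dysf and Exoc6b and Aldh1a2 between Aqp9 and Polr2m. That is not the build of the peaks, so the sequences were not placed on any peak, and no peak below is assigned to a promoter, exon or intron. The 250 bases before each start read 5′ to 3′ on the gene's strand, with capitals marking matches to CAATAA, the core of the CCAATAAA motif that HOX13 proteins prefer. Cyp26b1 is given at GRCm38.p6 chr6:84593811-84594060, minus strand, and Aldh1a2 at GRCm38.p6 chr9:71215539-71215788, plus strand.
Cyp26b1: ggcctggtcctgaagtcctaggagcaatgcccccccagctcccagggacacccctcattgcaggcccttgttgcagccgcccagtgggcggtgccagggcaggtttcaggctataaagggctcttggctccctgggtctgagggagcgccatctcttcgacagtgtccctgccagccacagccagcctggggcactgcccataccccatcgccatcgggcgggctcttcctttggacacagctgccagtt
Aldh1a2: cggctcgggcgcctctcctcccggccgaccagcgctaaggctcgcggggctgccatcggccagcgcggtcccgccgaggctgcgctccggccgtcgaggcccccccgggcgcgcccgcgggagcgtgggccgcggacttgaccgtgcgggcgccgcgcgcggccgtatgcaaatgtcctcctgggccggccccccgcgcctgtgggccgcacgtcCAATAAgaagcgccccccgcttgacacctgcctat
Both were rich in G and C, at 64.8% for Cyp26b1 and 77.6% for Aldh1a2, against a median of 52.4% over 32851 promoters. On either strand CAATAA occurred once upstream of Aldh1a2 30 to 35 bases before the start and was not found upstream of Cyp26b1; 9.07% of promoters held it. The full CCAATAAA, which contains CAATAA, was in neither sequence and in 1.02% of promoters. The retinoic acid receptor half-site AGGTCA was in neither and in 14.0% of promoters. A direct repeat of that half-site with any 5 bases between the copies was in neither and in 0.00913% of promoters. These are matches of letters within one window and say nothing of binding there.

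Both windows held many HOX13 peaks in wild-type limbs. Each peak carries a score from the authors' peak caller, a scaled negative logarithm of its p-value; the score grows with depth and is used here to rank peaks within 1 list. The Cyp26b1 window held 15 HOXA13 peaks and 13 HOXD13 peaks, against medians of 6 and 4.5 over 4006 autosomal windows of the same length (upper quartiles 11 and 8). The Aldh1a2 window held 10 HOXA13 and 7 HOXD13 peaks, against medians of 4 and 3 over 6016 windows (upper quartiles 7 and 5). Both windows thus lay above the upper quartile for HOXA13 and for HOXD13.

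At the authors' threshold most peaks of either factor overlapped one of the other. Of the HOXA13 peaks in the Cyp26b1 window 12 of 15 overlapped a HOXD13 peak, as did 7 of 10 in the Aldh1a2 window, and 64% did so on all autosomes. Of the HOXD13 peaks 12 of 13 in the Cyp26b1 window and 7 of 7 in the Aldh1a2 window overlapped a HOXA13 peak, against 87% on all autosomes. These shares are near those of the autosomes. Peaks that overlapped were merged into sites, which gave 16 sites in the Cyp26b1 window (12 of both factors, 3 of HOXA13 only, 1 of HOXD13 only) and 10 in the Aldh1a2 window (7 of both factors, 3 of HOXA13 only). Among 33296 autosomal sites the shared ones made up 58.1%, those with HOXA13 alone 33.2% and those with HOXD13 alone 8.72%. The majority in the Cyp26b1 window depends on the score minimum: with scores of at least 100 it held 5 sites of both factors and 8 of 1 factor, while the Aldh1a2 window held 6 and 1. At shared sites the centres of the peaks of both factors lay a median of 57 bp apart in the Cyp26b1 window and 23.5 bp apart in the Aldh1a2 window, against 56 bp over 19353 autosomal shared sites.

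In the Cyp26b1 window the shared site with the highest scores of both factors was chr6:84816585-84818719, with a HOXA13 score of 1198 and a HOXD13 score of 1672. Of the autosomal peaks of each list, 96.9% of HOXA13 and 98.3% of HOXD13 peaks scored lower. The next by HOXA13 score were chr6:84745539-84748003, with 892 for HOXA13 and 677 for HOXD13, and chr6:84359585-84360799, with 878 for HOXA13 and 263 for HOXD13. A further site at chr6:84838812-84840604 scored 593 for HOXA13 and 561 for HOXD13, the third highest HOXD13 score of the window. None of these 4 lay near the centre of the window's broad H3K27ac peak: their centres were 282 kb, 211 kb, -176 kb and 304 kb away, in that order. The only site inside that broad peak, chr6:84535024-84536600, scored 222 for HOXA13 and 196 for HOXD13 and lay -0.0555 kb from its centre.

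In the Aldh1a2 window 1 site stood above the others. It was chr9:71088691-71090868, with a HOXA13 score of 1920 and a HOXD13 score of 1909, higher than 98.8% of autosomal HOXA13 peaks and 98.7% of autosomal HOXD13 peaks. The second, chr9:71064319-71066424, scored 817 for HOXA13 and 783 for HOXD13. The third by HOXA13 score, chr9:71170851-71171683, had 657 for HOXA13 and 264 for HOXD13. Sites with a single factor scored low in both windows, between 58.9 and 105 for the 6 of HOXA13 only and 113 for the 1 of HOXD13 only. Low scores were not particular to them, since shared sites went down to 78.6 for HOXA13 and 53.9 for HOXD13. HOXA13 chromatin was cross-linked with disuccinimidyl glutarate in addition to formaldehyde, and no HOXA13 or HOXD13 library of the double mutant was analysed here as a control for the antibodies.

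**Figure D1:**
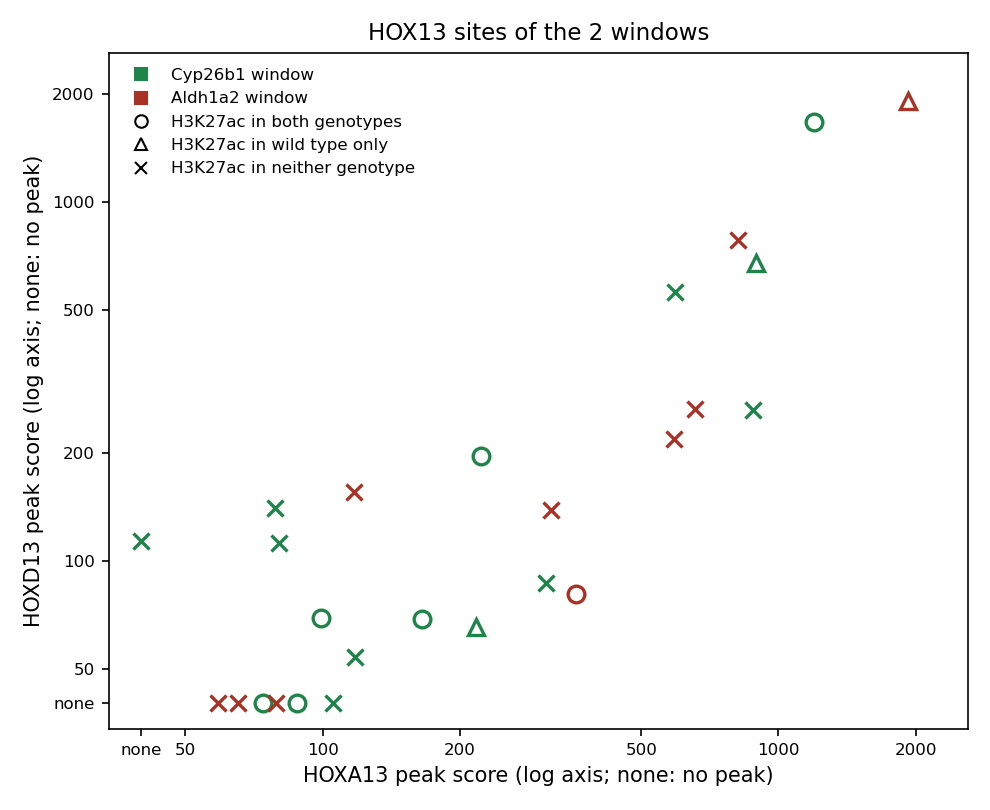
Peak scores of HOXA13 (x axis, log scale) and HOXD13 (y axis, log scale) at the 16 sites of the Cyp26b1 window and the 10 of the Aldh1a2 window; sites at "none" lack that factor's peak, and the symbol shows in which genotype the site overlapped an H3K27ac peak. The highest point, in the Aldh1a2 window (1920 and 1909), overlapped H3K27ac in wild type only, and the next (1198 and 1672, Cyp26b1 window) in both genotypes.

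Around Cyp26b1, H3K27ac was called in both genotypes as a broad peak. Of 5 H3K27ac peaks called in the double mutant only, 3 lay beside the broad peak. Of 3 called in wild type only, 2 lay on distant sites of both factors. These positions are a description only. No autosomal share is given for peaks beside a broad peak or for peaks on sites of both factors. On all autosomes, 2542 of the 4712 peaks called in wild type only overlapped a HOX13 site of any kind. For the fraction of peaks called in a single genotype, the autosomal share lay inside the interval of the window, as given below. The window held 14 double-mutant H3K27ac peaks covering 30.6 kb and 12 wild-type peaks covering 25.2 kb, and 18.6 kb was covered in both. On all autosomes the double-mutant list was also the longer one, with 37433 peaks against 31220 in wild type. The highest peak of each list was a broad one with the score 3100, a value that 2732 autosomal double-mutant peaks and 4358 autosomal wild-type peaks share. In the double mutant it was chr6:84529214-84540633 and 11.4 kb wide, wider than 99.7% of its autosomal list. In wild type it was chr6:84531623-84540112 and 8.49 kb wide, wider than 99.6% of its list.

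H3K27ac peaks called in the double mutant alone are termed gained, and those called in wild type alone lost. In the Cyp26b1 window 5 of 14 double-mutant peaks were gained (35.7%, Wilson 95% interval 16.3 to 61.2%), and 30.4% were gained on all autosomes. Of 12 wild-type peaks 3 were lost (25.0%, 8.89 to 53.2%), and 15.1% were lost on all autosomes. Both autosomal values lay inside the intervals, which cover the counting of peaks only. The lost count depends on the lists: 5 of 9 wild-type peaks were lost among peaks scoring 100 or more, and 5 of 12 with lists of equal length.

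HOX13 sites were overlapped by 6 of 14 double-mutant H3K27ac peaks and 8 of 12 wild-type ones, against 29.3% and 38.2% on all autosomes. Of the 8 bound wild-type peaks 2 were lost (21.3% on all autosomes), and of the 4 unbound ones 1 was lost (11.2%). Both lost bound peaks lay on sites of both factors. The lost peak with the highest score was chr6:84745799-84747797 (score 198), inside the second-ranked HOX13 site of the window; the nearest double-mutant H3K27ac peak was 67.4 kb from that site. Another, chr6:84344512-84345342 (score 73.6), lay inside the site chr6:84344152-84345805, which scored 217 for HOXA13 and 65.3 for HOXD13. The last, chr6:84882997-84884239 (score 122), overlapped no HOX13 site. All 3 scored in the lower part of the wild-type list, where 38.8%, 11.9% and 26.7% of autosomal peaks scored lower, in that order.

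None of the 5 gained peaks overlapped a HOX13 site. The share of autosomal gained peaks on HOX13 sites was not computed, so this count is a description only. Seen from the sites, 1462 of 33296 autosomal HOX13 sites (4.39%) lay in H3K27ac of the double mutant only, while 11393 autosomal peaks were gained. Of all autosomal double-mutant H3K27ac peaks 29.3% lay on HOX13 sites, so an absence among 5 is not read as a trait of the window. Of the 5 gained peaks, 3 flanked the broad peak: chr6:84524681-84525821 (score 111), chr6:84527193-84528791 (score 166) and chr6:84542738-84544170 (score 112). The other 2 were neighbours at chr6:84308165-84308971 (score 52.8) and chr6:84309111-84310127 (score 81.7). In the stretch chr6:84519047-84544170, where neighbouring double-mutant H3K27ac peaks were less than 10 kb apart, the double mutant had 5 peaks covering 17.7 kb and wild type 2 covering 9.78 kb. The stretch was bounded by double-mutant peaks after they were seen, which favours the double mutant, so these lengths are a description only. The single HOX13 site of that 25.1 kb stretch was the one in the broad peak. A peak at its edge was called in both genotypes. It was 2.14 kb wide with a score of 435 in the double mutant (chr6:84519047-84521189) and 1.29 kb wide with a score of 99.0 in wild type (chr6:84519496-84520788). Of the autosomal peaks of each list, 61.4% in the double mutant and 20.8% in wild type scored lower.

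Several other H3K27ac peaks of the window, away from the broad peak, were called in both genotypes. The second-highest peak of both lists lay at chr6:84380368-84382564 in the double mutant (score 635) and at chr6:84380338-84382351 in wild type (score 705), on a site of HOXA13 only. The third of the wild-type list, chr6:84825049-84826959 (score 335), overlapped no HOX13 site and was called in the double mutant with a score of 216. The highest-scoring HOX13 site of the window kept its H3K27ac peak, which was 2.73 kb wide with a score of 183 in the double mutant and 1.88 kb wide with a score of 178 in wild type. A HOX13 site with scores of 1198 and 1672 thus had H3K27ac in both genotypes, while one with 892 and 677 had it in wild type only.

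**Figure D2:**
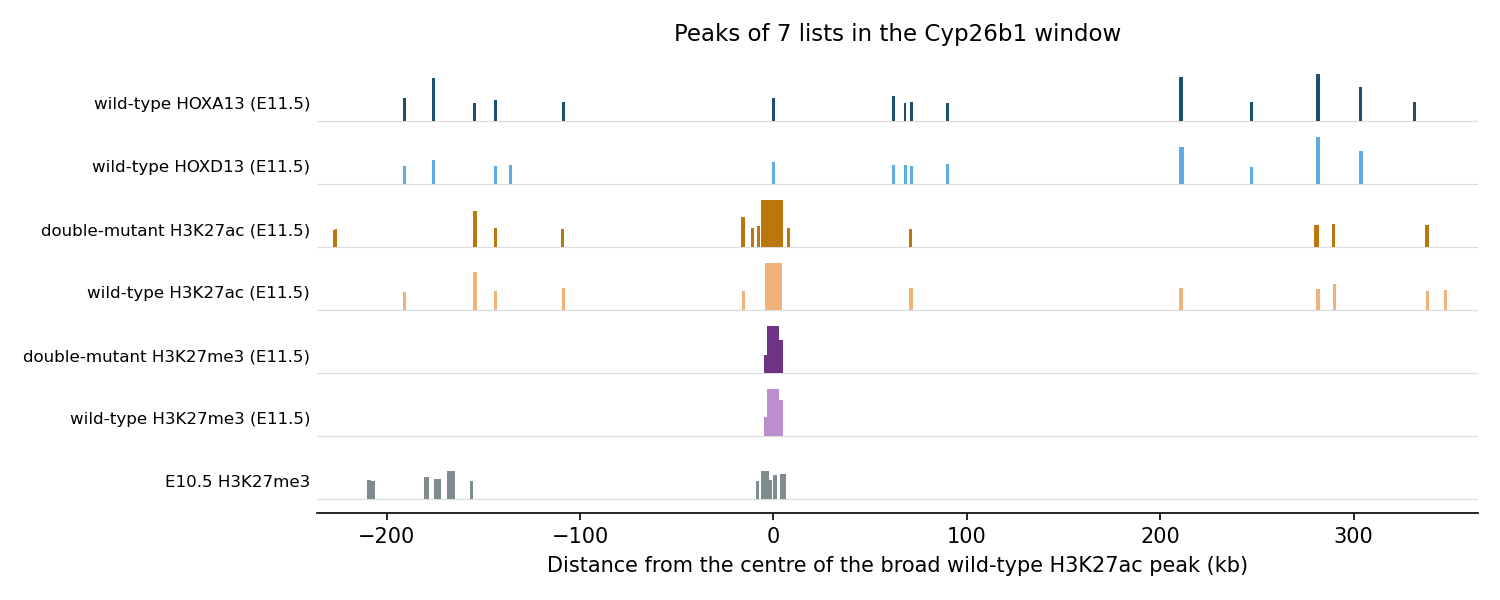
Peaks of the 7 lists in the Cyp26b1 window, drawn by distance in kb from the centre of the broad wild-type H3K27ac peak; each block is a peak, with narrow ones widened to be visible, and its height rises with its score up to 1000. The H3K27ac peak at 211 kb was called in wild type only, and the E10.5 H3K27me3 peaks left of -155 kb had no E11.5 counterpart.

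H3K27me3 lay under the same broad H3K27ac peak of the Cyp26b1 window in both genotypes. The double mutant had 3 H3K27me3 peaks covering 8.50 kb, from 84531300 to 84540592 on chromosome 6, and wild type had 3 covering 9.53 kb, from 84531009 to 84540628. The highest was chr6:84532665-84538693 in the double mutant (score 1471) and chr6:84532306-84538709 in wild type (score 3100). The other 2 scored 552 and 52.8 in the double mutant and 636 and 91.8 in wild type. Within their own lists the highest peaks ranked alike, with 76.4% of autosomal double-mutant and 77.0% of autosomal wild-type peaks scoring lower. The score 3100 is shared by 3126 autosomal double-mutant and 4432 autosomal wild-type H3K27me3 peaks. Each peak of one genotype overlapped a peak of the other, so 0 of 3 were called in the double mutant only (15.8% on all autosomes) and 0 of 3 in wild type only (30.4% on all autosomes). Within each genotype, H3K27ac covered 100% of the H3K27me3 length in the double mutant and 88.1% in wild type, against 10.8% and 7.74% on all autosomes. The single HOX13 site there therefore carried both marks in both genotypes, which 3.45% of autosomal HOX13 sites did in the double mutant and 4.13% in wild type.

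E10.5 H3K27me3 covered more of the Cyp26b1 window than E11.5 H3K27me3, mostly through peaks far from the broad H3K27ac peak. The E10.5 list had 11 peaks covering 27.8 kb in this window, while the E11.5 lists had 8.50 kb in the double mutant and 9.53 kb in wild type. The autosomal windows of the same length had a median of 1 peak at E10.5 (upper quartile 4). Of the 11 E10.5 peaks 7 had no E11.5 wild-type peak (63.6%, 35.4 to 84.8%), and the same 7 had no double-mutant peak. On all autosomes 13.6% of E10.5 peaks had no wild-type peak and 19.5% no double-mutant peak, both below that interval. Neighbouring peaks of 1 stretch are not independent, so the interval is too narrow. Among peaks scoring 100 or more, 3 of 7 E10.5 peaks had no wild-type peak.

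Of these 7 peaks, 6 lay together from 84325547 to 84380696 on chromosome 6, with scores from 60.3 to 388, and the last flanked the broad peak at chr6:84526856-84528210 (score 56.0). The highest, chr6:84367064-84371078 (score 388), was also the highest E10.5 peak of the window, above the E10.5 peaks under the broad H3K27ac peak, which scored 372, 297, 254 and 109. One of the 7, chr6:84360347-84363959 (score 118), overlapped a HOX13 site, the one with scores of 878 and 263. No H3K27ac peak of either genotype lay on that site, and it was 19.6 kb from the nearest in the double mutant and 14.2 kb in wild type. Another, chr6:84378946-84380696 (score 60.3), met the edge of the H3K27ac peak with scores of 635 in the double mutant and 705 in wild type. Stage cannot be told apart from strain, antibody and dissected part of the limb in this comparison.

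**Figure D3:**
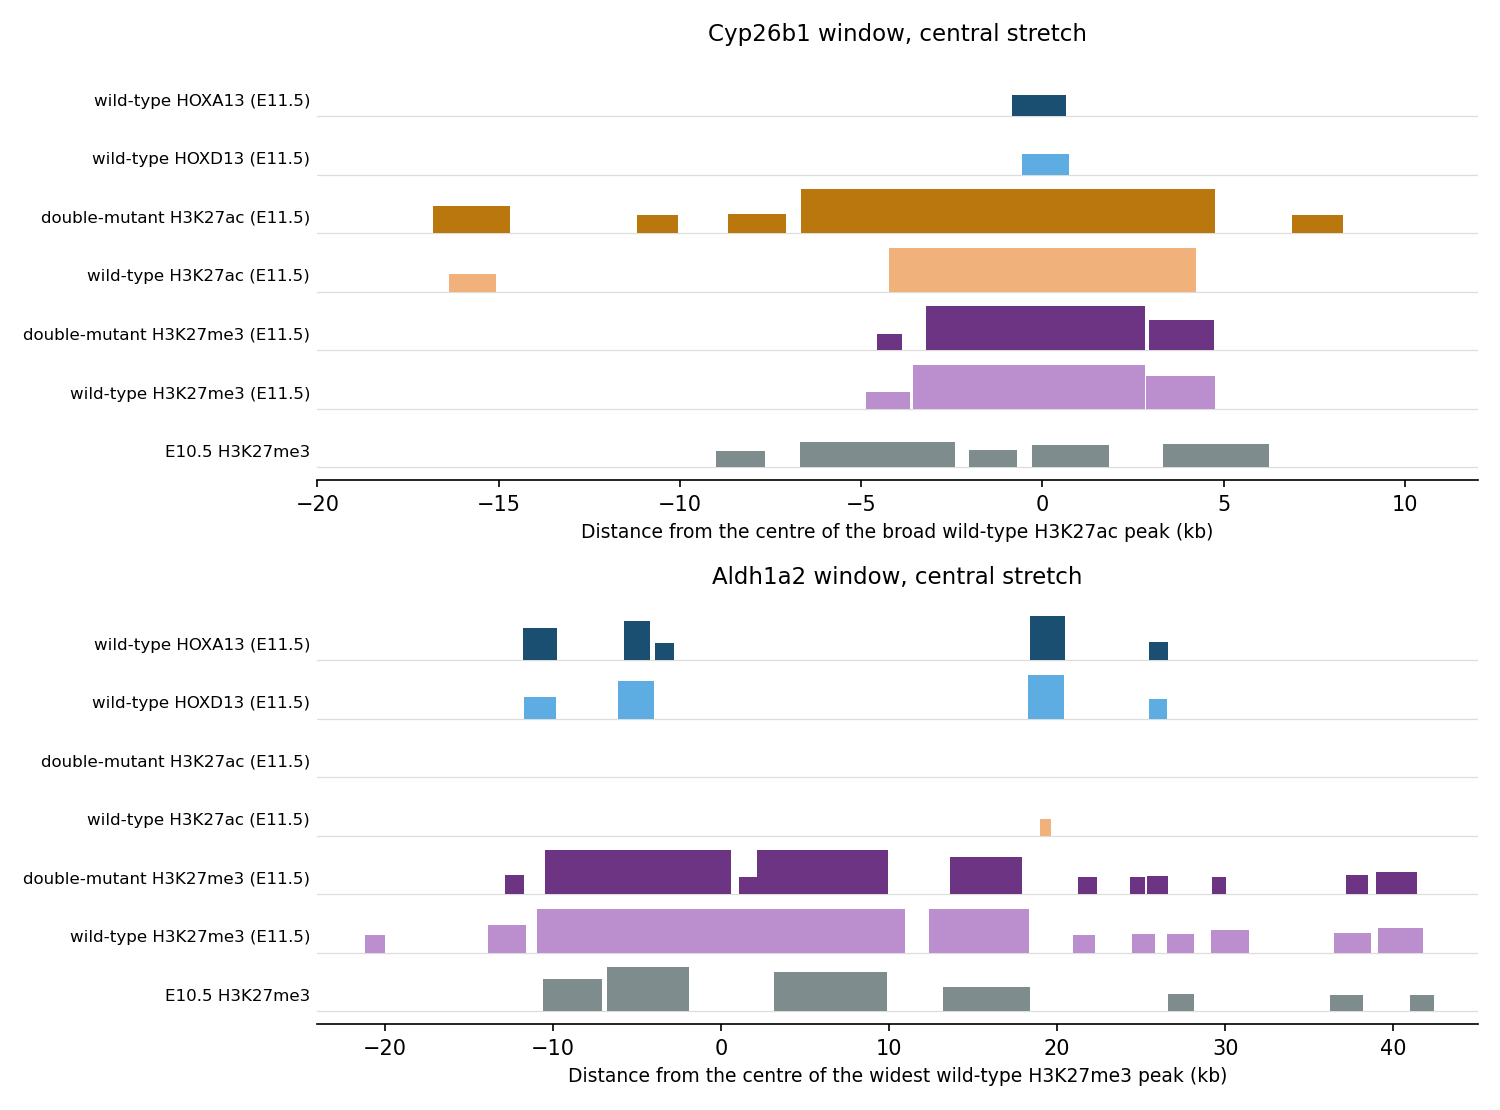
Central stretches of both windows, with peaks drawn by distance in kb from the centre of the broad wild-type H3K27ac peak (Cyp26b1, top) and of the widest wild-type H3K27me3 peak (Aldh1a2, bottom), and block height rising with score up to 1000. Around Cyp26b1 both marks overlap and double-mutant H3K27ac extends past the wild-type peak, while around Aldh1a2 the highest HOX13 site falls in a gap of H3K27me3 in all 3 lists. H3K27me3 there has other gaps as well.

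Around Aldh1a2 H3K27me3 covered more length than H3K27ac in both genotypes, the reverse of the Cyp26b1 window. H3K27me3 lay above the medians of autosomal windows of the same length in both windows. In the Cyp26b1 window it covered 8.50 kb in the double mutant, 9.53 kb in wild type and 27.8 kb at E10.5, against 5.45, 7.37 and 3.60 kb. In the Aldh1a2 window it covered 35.4 kb in the double mutant, 49.3 kb in wild type and 38.5 kb at E10.5, against 2.70, 4.26 and 1.39 kb. H3K27ac covered 2.43 kb in the double mutant and 1.96 kb in wild type, below the autosomal medians of 5.66 and 5.34 kb. No base of the window was covered by H3K27ac and H3K27me3 in the same genotype.

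Most of the H3K27me3 formed 1 run of peaks less than 10 kb apart. The run had 11 peaks over 54.3 kb in the double mutant (chr9:71057569-71111850, 33.2 kb covered), 10 peaks over 62.9 kb in wild type (chr9:71049269-71112183, 42.6 kb covered) and 7 peaks over 53.0 kb at E10.5 (chr9:71059816-71112811, 25.1 kb covered). Its widest wild-type peak, chr9:71059474-71081374 (21.9 kb, score 3100), was wider than 98.7% of autosomal wild-type H3K27me3 peaks. In the double mutant the same stretch was called as 3 peaks, chr9:71059944-71071014 and chr9:71072573-71080365, both with the score 3100, and chr9:71071482-71072550 (score 94.2). At E10.5 the highest peaks were chr9:71063678-71068499 (score 1079), chr9:71073581-71080291 (score 850) and chr9:71059816-71063321 (score 584). The next highest E11.5 peak was chr9:71084044-71088351 in the double mutant (score 759) and chr9:71082781-71088718 in wild type (score 1794). Of the autosomal peaks of each list, 69.2% in the double mutant and 71.5% in wild type scored lower.

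Between genotypes 0 of 13 double-mutant peaks lacked a wild-type peak (interval up to 22.8%; 15.8% on all autosomes). In the other direction 3 of 14 wild-type peaks lacked a double-mutant peak (21.4%, 7.57 to 47.6%; 30.4% on all autosomes). These 3 were low-scoring, chr9:71049269-71050468 (score 93.8), chr9:71178172-71178941 (score 90.2) and chr9:71142289-71143465 (score 63.1). The 34.3 kb covered in both genotypes was 97.1% of the double-mutant length and 69.6% of the wild-type length; on all autosomes those shares were 91.3% and 73.7%. With scores of at least 100, with lists of equal length or with 50% overlap, 1 double-mutant peak of the window lacked a wild-type peak.

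Of 12 E10.5 peaks 4 had no E11.5 peak in either genotype (33.3%, 13.8 to 60.9%), against 19.5% without a double-mutant peak and 13.6% without a wild-type peak on all autosomes. The first of these autosomal shares lay inside the interval and the second just below it. The autosomal share without a peak in either genotype was not computed and is at most the second. Neighbouring peaks are not independent here either, so the interval is too narrow. With scores of at least 100 only 1 of 6 E10.5 peaks had no wild-type peak. The 4 E10.5 peaks with no E11.5 peak lay outside the run, at chr9:71157865-71160882 (score 112), chr9:71187723-71189757 (score 86.5), chr9:71190495-71191970 (score 61.3) and chr9:71163235-71164532 (score 58.0), and none overlapped a HOX13 site. In reverse, 6 of 13 double-mutant peaks and 8 of 14 wild-type peaks had no E10.5 peak, against 46.5% and 50.2% on all autosomes.

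Several HOX13 sites of the Aldh1a2 window lay in H3K27me3. Of its 10 sites 4 overlapped double-mutant H3K27me3 (40%, 16.8 to 68.7%), 5 wild-type H3K27me3 (50.0%, 23.7 to 76.3%) and 4 E10.5 H3K27me3. On all autosomes 8.6%, 10.7% and 6.44% of sites did so, in that order. The sites that overlapped it were all in the 1 run and thus share their domain, and the difference from the autosomes was not tested. Where 50% overlap was required, the counts were 3 sites in the double mutant, 3 in wild type and 2 at E10.5. Of the Cyp26b1 window's 16 sites 1 overlapped H3K27me3 in the double mutant, the same 1 in wild type, and 2 at E10.5. The site with scores of 817 and 783 and its neighbour of HOXA13 only at chr9:71066482-71067613 were covered by H3K27me3 over their whole length in all 3 lists. The site chr9:71058658-71060675, with a HOXA13 score of 590 and a HOXD13 score of 218, was covered over 37.7% of its length in the double mutant, 67.6% in wild type and 42.6% at E10.5. The site chr9:71095875-71096996, with scores of 117 and 155, went the other way between genotypes. Its coverage was 100% in the double mutant, 33.2% in wild type and 0% at E10.5.

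The highest-scoring HOX13 site of the window, chr9:71088691-71090868, lay in an interruption of the run. The run had other interruptions too, since peaks covered 61.2% of its span in the double mutant, 67.8% in wild type and 47.4% at E10.5. The gap between the flanking H3K27me3 peaks was 3.29 kb in the double mutant, 2.66 kb in wild type and 8.20 kb at E10.5. H3K27me3 covered 0 bp of the site in the double mutant, 28 bp in wild type and 132 bp at E10.5, so the overlap counted in the last 2 lists was at an edge. The site carried the window's only wild-type H3K27ac peak inside the run, chr9:71089406-71090079, which was narrow (0.674 kb) and just above the lowest score of the list (52.5, with 1.64% of autosomal peaks lower); it is absent when a score of 100 is required. No double-mutant H3K27ac peak was called there, the nearest being 32.9 kb away.

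Beyond the run, H3K27ac was called once in both genotypes and once in the double mutant only. The shared peak was chr9:71123759-71124699 in the double mutant (score 102) and chr9:71123599-71124879 in wild type (score 256), on a site with a HOXA13 score of 359 and a HOXD13 score of 80.7. The double-mutant peak without a wild-type counterpart was chr9:71243628-71245112 (score 118), on no HOX13 site. With 2 peaks in each list, 1 of 2 gained and 1 of 2 lost, no share is informative. The HOX13 sites at chr9:71170851-71171683 and chr9:71184765-71185910 (scores of 318 and 138) lay in no called mark, the second 0.049 kb from an E10.5 H3K27me3 peak (chr9:71179200-71184715, score 405).

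**Figure D4:**
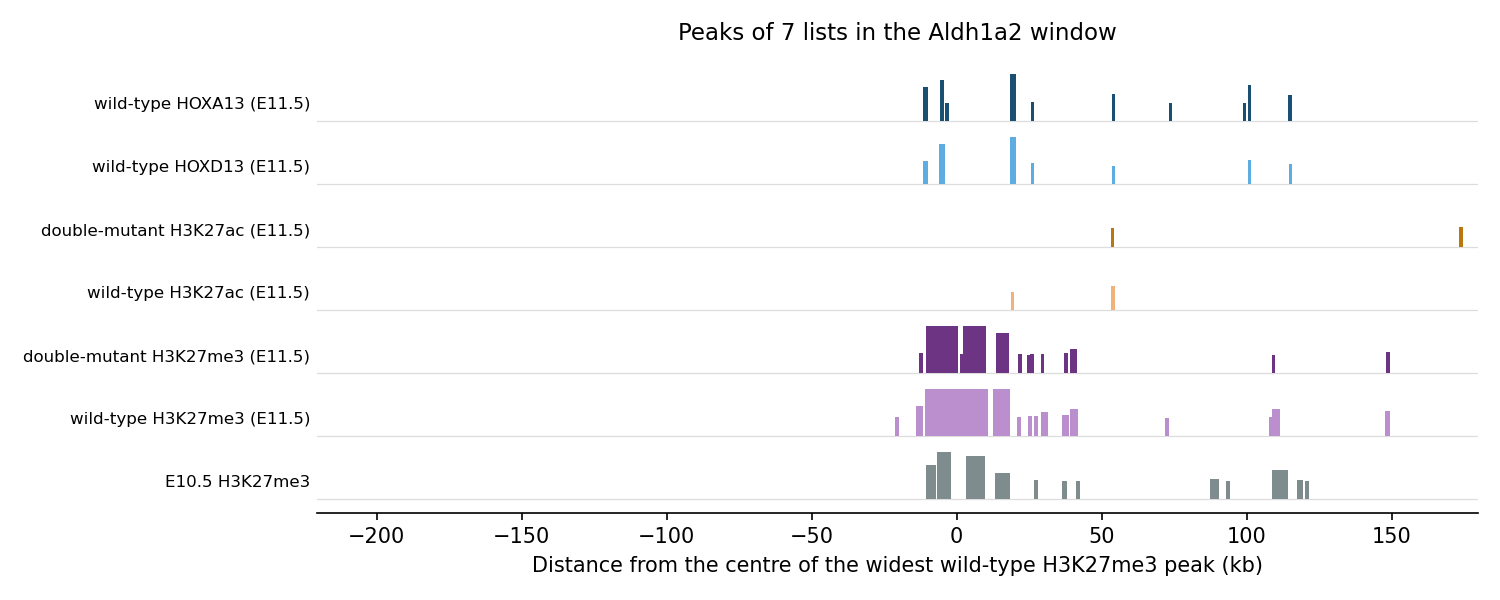
Peaks of the 7 lists in the Aldh1a2 window, drawn by distance in kb from the centre of the widest wild-type H3K27me3 peak; each block is a peak, with narrow ones widened to be visible, and its height rises with its score up to 1000. H3K27me3 fills one central stretch in all 3 lists, and H3K27ac peaks are few.

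Seen from the 26 HOX13 sites of both windows, H3K27ac was called at 7 in both genotypes, at 0 in the double mutant only, at 3 in wild type only and at 16 in neither. On all autosomes the shares were 30% in both genotypes, 4.39% in the double mutant only, 7.64% in wild type only and 57.9% in neither; for the 3 sites in wild type only the interval was 4.00 to 29.0%, and the autosomal value lay inside it. By genotype, 7 of 26 sites were in double-mutant H3K27ac and 10 of 26 in wild-type H3K27ac, against 34.4% and 37.7% on all autosomes. In the Cyp26b1 window these counts were 6 and 8 of 16 sites; with lists of equal length 3 sites lay in double-mutant and 7 in wild-type H3K27ac, and with scores of at least 100 the counts were 2 in the double mutant and 4 in wild type. The 3 sites with H3K27ac in wild type only were all of both factors, as 73.1% of the windows' sites and 58.1% of autosomal sites were. Neither mark was called at 15 of 26 sites in the double mutant and at 12 of 26 in wild type, against 60.4% and 55.8% on all autosomes.

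**Figure D5:**
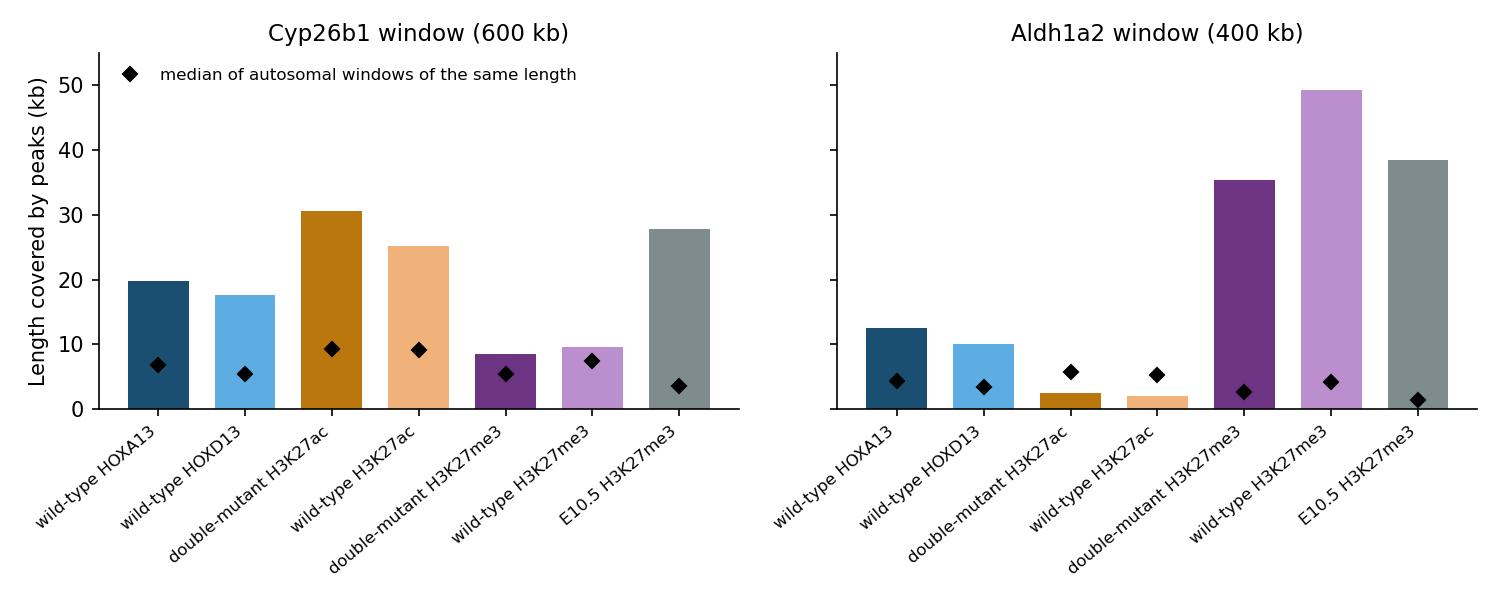
Length covered by the peaks of each list (bars, kb) in the Cyp26b1 and Aldh1a2 windows, with the median over autosomal windows of the same length (diamonds). H3K27ac is above its diamond at Cyp26b1 (30.6 kb in the double mutant, 25.2 kb in wild type) and below it at Aldh1a2 (2.43 kb in the double mutant, 1.96 kb in wild type), while H3K27me3 at Aldh1a2 (35.4 kb in the double mutant, 49.3 kb in wild type, 38.5 kb at E10.5) is far above. H3K27me3 at Cyp26b1 is above its diamond in all 3 lists as well.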

How the data were processed

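ChIP-seq peak lists of 7 libraries were used; the 5 input libraries enter only through the authors' peak calling and their signal was not analysed here. The deposited score in each list is the peak caller's value. Per the submitters' processing notes Bowtie 0.12.7, MACS 1.4 and mm9 were used. Lists were called per library against an input, per the file names in the labels. By title no input library belongs to either E11.5 H3K27me3 library, whereas the E10.5 H3K27me3 library has its own. The lowest score was 50, a p-value of 1e-05 on that scale. The lists hold no read counts, so depth per sample is unknown and no floor can be given. In every list, 6 to 16 peaks exceeded the GRCm38 length of chromosome 1 (195471971 bp), so peaks were treated as mm9, no coordinate was converted and no gene model was placed on a peak; counts for other retinoic acid genes were not made. Coordinates count from 1. Overlap meant at least 1 bp. Groups came from sample titles, 1 library each, so no test was made. Windows of the same length were tiled over each autosome from its first to its last peak; the background is autosomal because the lists differ in their other peaks (28875 wild-type H3K27me3 peaks, of which 19624 were autosomal). Intervals are Wilson 95% intervals (SciPy 1.17.1, Python 3.11.15) and cover counting error only. Overlap and coverage code was tested on simulated data. Named peaks are the 3 with the highest score in each list and window, every peak called in 1 genotype only, and every site of both factors in H3K27ac of 1 genotype only; other peaks and sites were named after their values were seen. 7 alternatives were run: score minimum, overlap of 50%, distance of 1000 bp, equal list length, joining, window edge and window size. The members, lists and windows were chosen with earlier results of these data known; the runs, spans and gaps described were chosen after the values were seen.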

Additional observations from a re-analysis of the deposited data

How the results depend on the processing

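Of 238 counts recomputed under 7 alternatives, 190 stayed within 1.5 times the reported count. These 190 include all 38 with only peaks wholly inside the windows. That setting could change nothing, because no peak crossed a window edge, so its 38 counts say nothing of stability. Windows narrowed by 100 kb on each side leave out the distant sites by construction. Around Cyp26b1 they held 8 HOXA13 and 8 HOXD13 peaks, 7 double-mutant and 5 wild-type H3K27ac peaks, 5 E10.5 H3K27me3 peaks (1 of them absent from wild type), 7 sites of both factors and 2 of 1 factor, 1 lost and 3 gained H3K27ac peaks, and 3 sites in double-mutant H3K27ac, 4 in wild-type H3K27ac and 1 in E10.5 H3K27me3. Around Aldh1a2 they held 1 double-mutant H3K27ac peak, 0 gained, and 7 E10.5 H3K27me3 peaks with 0 absent from wild type. Where every list was held to scores of at least 100, the Cyp26b1 window had 8 HOXD13 peaks, 9 double-mutant H3K27ac peaks, 7 E10.5 H3K27me3 peaks (3 absent from wild type), 5 sites of both factors and 8 of 1 factor (12 and 4 as reported, so the majority turned), 5 lost H3K27ac peaks, and 2 sites in double-mutant and 4 in wild-type H3K27ac. The Aldh1a2 window had 1 wild-type H3K27ac peak (0 lost, since the peak at its highest HOX13 site scored lower), 6 E10.5 H3K27me3 peaks (1 absent from wild type), 1 double-mutant H3K27me3 peak absent from wild type (0 as reported), 1 site of 1 factor and 1 site in wild-type H3K27ac. With lists of equal length, 5 H3K27ac peaks were lost around Cyp26b1 and 3 sites lay in double-mutant H3K27ac; around Aldh1a2, 1 site had 1 factor, and 1 H3K27me3 peak was in the double mutant only and 1 in wild type only. Joining gave 1 double-mutant, 1 wild-type and 7 E10.5 H3K27me3 peaks and 3 gained H3K27ac peaks around Cyp26b1, and 1 site of 1 factor around Aldh1a2. Overlap of 50% left 1 E10.5 H3K27me3 site around Cyp26b1 and, around Aldh1a2, 3 wild-type and 2 E10.5 H3K27me3 sites and 1 H3K27me3 peak in the double mutant only. Counting peaks within 1000 bp as overlapping left 1 site of 1 factor around Aldh1a2. The causes were not tested. No paired analysis was possible because each group holds 1 library.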
